A study of Arabidopsis thaliana with 3 samples.

Results

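The genes described here are 102 of 7234 named loci of Arabidopsis thaliana whose mutant to wild-type ratio was lower on array 2 than on both other arrays of a 3-array series. They were chosen by their measured ratios. A locus was taken when its log2 ratio on array 2 lay at least 1 (2-fold) below the mean of arrays 1 and 3, when arrays 1 and 3 lay within 0.7 of each other, and when both of these were above -0.7. Every array carried RNA of hy5-1 plants, labelled red (Cy5), against RNA of Ler plants, labelled green (Cy3). Ler is the accession Landsberg erecta, and hy5-1 is a mutant allele of HY5. Plants of both genotypes were 3 weeks old, had grown at 22 °C in days of 16 h light and 8 h dark, and had then spent 1 day at 4 °C, so both channels held cold-treated RNA and there was no warm control. The labels call the arrays 3 biological replicates, name whole plants and no tissue, and give a single mutant allele. No array had the dyes exchanged, so dye and genotype cannot be told apart.

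HY5 is a bZIP transcription factor that promotes development in the light. It accumulates when the ubiquitin ligase COP1 is inactive, binds promoter elements with an ACGT core, and is known for raising genes of pigment synthesis. Per its title, the series asks how HY5 controls genes that cold induces.

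A value in this text is a deposited log2 ratio, read as hy5-1 over Ler. That reading is likely from the dyes but is not stated, and under the opposite reading every sign turns. The log base was taken as 2. The deposited table holds ratios without intensities, so signal over background is unknown, and the number of arrays limits the precision. Array medians lay between 0 and 0.01. The drop was seen on a single array by construction, so no replicate of it exists, no test was made of it, and its cause was not tested.

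Of the 7234 named loci, 145 departed by -1 or lower on array 2, where departure is array 2 minus the mean of arrays 1 and 3. Arrays 1 and 3 lay close together for 114 of them, and 107 also met the lower limit on these arrays. The rule leaves out 5 of the 107 by name. It names 4 loci and any symbol starting with UGT, so a glycosyltransferase locus without a symbol would not be left out by its letters. Among the 5 was DFR, the dihydroflavonol reductase of anthocyanin synthesis, with 2.61, -1.64 and 2.28 on arrays 1, 2 and 3. The departures of these 5 ran from -4.085 to -1.085. Of the 102 that remained, 100 were measured by a single feature and 2 by 2 features.

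Across the 102 genes the ratio on array 1 had a median of 0.53 and ran from -0.66 to 1.97. Array 3 was alike, with a median of 0.495 and a range from -0.63 to 1.73. Array 2 had a median of -0.845 and ran from -2.96 to 0.63. The median departure was -1.186 and the quartiles were -1.419 and -1.095, so most of the group sat near the edge of the rule. Only 9 genes departed by -2 or lower. Over all named loci the median departure was -0.005, with quartiles of -0.23 and 0.215.

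**Figure D1:**
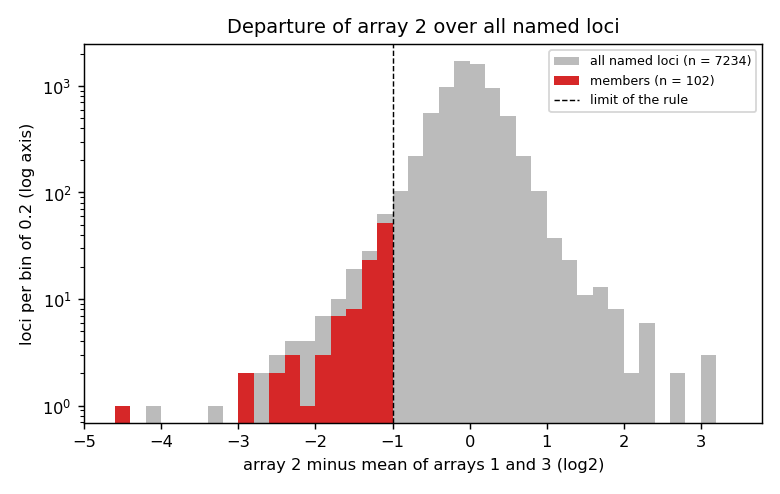
Histogram of the departure of array 2 from the mean of arrays 1 and 3 (log2, horizontal axis) over all 7234 named loci in grey and the 102 members in red, with the number of loci per bin on a log axis. The members lie left of the dashed limit at -1, and grey bars left of it are loci that failed another condition or were left out by name.

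The group held different patterns. In 68 genes arrays 1 and 3 were above 0 and array 2 below 0, so the sign of the ratio turned between arrays. No size was required of a sign. Among the 68 the values nearest 0 were 0.06, -0.09 and 0.04 on arrays 1, 2 and 3. In 18 genes all 3 arrays were below 0, with medians of -0.195 and -0.41 on arrays 1 and 3 against -1.445 on array 2. In 8 genes all 3 arrays were above 0, with medians of 1.475 and 1.28 on arrays 1 and 3 against 0.3 on array 2. The remaining 8 had arrays 1 and 3 on opposite sides of 0. Arrays 1 and 3 were both at 1 or above in 16 genes, and array 2 was at -1 or below in 42, but only 2 genes met both conditions. In 19 genes arrays 1 and 3 both lay within 0.3 of 0, so that only array 2 had a log2 ratio well away from 0.

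**Figure D2:**
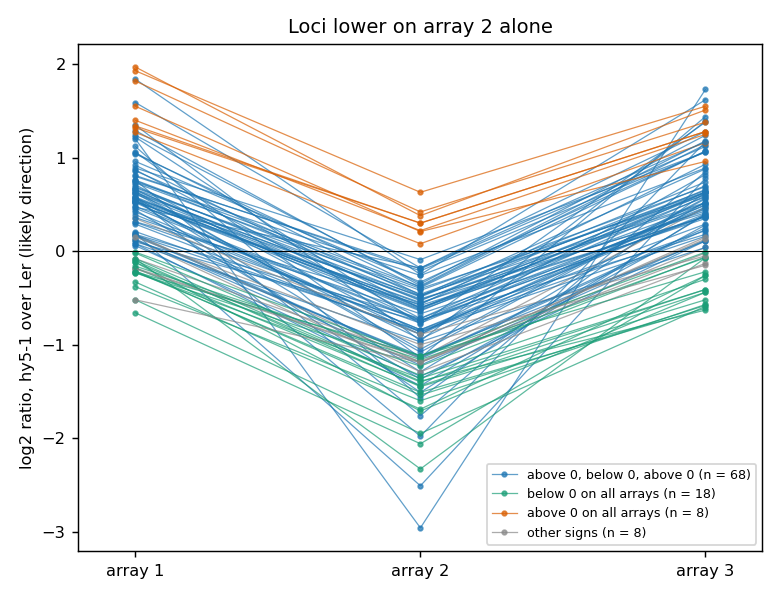
Log2 ratio of hy5-1 over Ler (vertical axis, likely direction) of each of the 102 genes on arrays 1, 2 and 3, with a line per gene coloured by the signs of its ratios. The 68 genes in blue cross 0 on array 2 and return, while 18 stay below 0 and 8 stay above it.

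Only 24 of the 102 genes have a symbol in the RefSeq gene table, and the other 78 are known there by locus number, so no role is given for them. Protein folding factors were among those with a symbol. Fes1A (AT3G09350) belongs to the nucleotide exchange factors that serve HSP70 chaperones. Its ratio was 0.76 on array 1, -1.76 on array 2 and 0.85 on array 3, a level on array 2 that was 5.92-fold below the mean of the others. Hsp70-2 (AT5G02490), a cytosolic HSP70 chaperone, had 0.315, -0.57 and 0.93. It was measured by 2 features, whose departures of -1.295 and -1.09 were alike. Cpn60beta2 (AT3G13470), a subunit of the chloroplast chaperonin, had -0.23, -1.23 and -0.06, and was thus close to wild type on arrays 1 and 3. MIA40 (AT5G23395), which acts in the import and oxidation of proteins of the mitochondrial intermembrane space, had -0.52, -1.95 and -0.59 and was the lowest of the 24 on array 2.

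The measured relatives of Fes1A and Cpn60beta2 did not meet the rule. Fes1B had 0.80, 1.00 and 0.51, and Fes1C had 0.39, 0.55 and 0.41, so both stood above 0 on every array. Cpn60beta3 departed by -0.535 and Cpn60beta4 by 0.57. The list of heat shock genes drawn up for this work had 0 measured members, so the wider heat response was not analysed here.

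Sugar transport was represented by 3 of the genes with a symbol. SWEET13 (AT5G50800), a sucrose exporter of the plasma membrane, had 0.08, -1.44 and 0.39, and was furthest from 0 on array 2. SWEET17 (AT4G15920), a fructose carrier of the vacuole membrane, had 0.61, -0.60 and 0.37. SFP1 (AT5G27350), a sugar-porter family protein, had 0.17, -0.85 and 0.22. Of 9 measured SWEET genes these 2 met the rule, and the others departed by -1.16 to 0.45. The lowest of these others was SWEET8, which had 1.96, -0.07 and 0.22 and failed the rule because arrays 1 and 3 differed. SFP2 departed by -0.27.

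Genes of ubiquitin ligases formed another set of 3 among those with a symbol. SK18 (AT1G10230), a SKP1-like subunit of SCF ligases, had 1.29, -0.37 and 1.18. LUL1 (AT5G03200), a RING-type ligase, had 0.13, -1.22 and 0.12, and its values on arrays 1 and 3 were nearly equal. PUB25 (AT3G19380), a U-box ligase known from Arabidopsis cold signalling, had 0.47, -0.18 and 1.17 and lay exactly on the limits of the rule, with a departure of -1.0. PUB26, its close relative, had 0.71, 0.10 and 0.83, a departure of -0.67 in the same direction. The other measured PUB genes departed by -0.61 to 0.58, and 3 other measured SK genes by 0.01 to 0.425.

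Other members belong to a cell wall family or encode proteins of the cytoskeleton. TBL45 (AT2G30010) and TBL19 (AT5G15900) belong to the TRICHOME BIREFRINGENCE-LIKE family, whose studied members acetylate wall polysaccharides. TBL45 had 0.56, -0.48 and 0.88, and TBL19 had 0.58, -0.63 and 0.49. The 12 other measured TBL genes departed by -0.43 to 1.14, and TBL21, at the upper end, had 0.01, 1.14 and -0.01, a departure of the opposite direction. TUB9 (AT4G20890), a beta tubulin, had 0.31, -0.77 and 0.47. SP1L5 (AT4G23496), of the SPIRAL1-like family of microtubule proteins, had 0.53, -0.58 and 0.37.

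EXO84B, BCAT4 and DJ1F were the remaining genes with a symbol among the 20 largest departures, and those described after them were named after their values were seen. EXO84B (AT5G49830) is a subunit of the exocyst, which tethers secretory vesicles at the plasma membrane, and had 1.12, -1.57 and 0.63. BCAT4 (AT3G19710), an aminotransferase that starts the chain elongation of methionine for aliphatic glucosinolates, had 0.58, -1.29 and 0.53. The list for glucosinolates and sulfur, which does not hold BCAT4, had 0 of its 20 genes measured. It therefore says nothing of other measured genes of this pathway. DJ1F (AT3G54600), of the DJ-1 family, had 1.24, -0.35 and 1.24, identical on arrays 1 and 3. LPR1 (AT1G23010), a multicopper oxidase of the root response to low phosphate, had 0.52, -0.89 and 0.82, while LPR2 departed by 0.

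The last genes with a symbol included signalling genes and genes of other or unstated roles. CML38 (AT1G76650), a calmodulin-like calcium sensor, had 0.16, -1.15 and 0.23. GID1C (AT5G27320), a gibberellin receptor, had 0.63, -0.52 and 0.51, whereas the receptor GID1B had 0.42, 0.64 and 0.29. FLR1 (AT3G12145), a leucine-rich repeat protein, had 0.18, -1.19 and -0.02. JAL22 (AT2G39310), a jacalin-related lectin, had -0.18, -1.18 and 0.13. AAPT2 (AT3G25585), an aminoalcoholphosphotransferase of phospholipid synthesis, had -0.16, -1.16 and -0.07. RXF26 (AT1G58430) had 1.55, 0.21 and 0.96 and was the only gene with a symbol that stayed above 0 on all arrays.

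**Figure D3:**
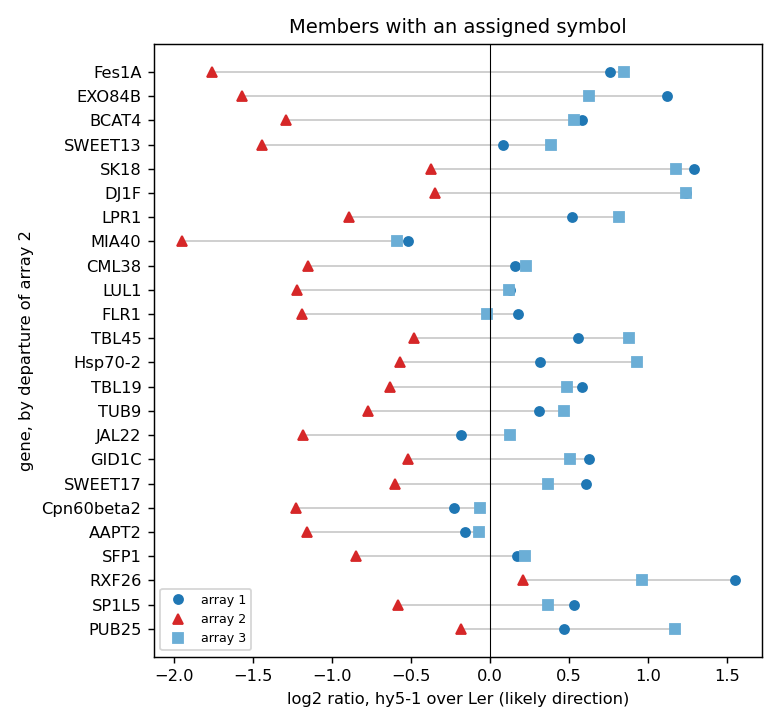
Log2 ratio of hy5-1 over Ler (horizontal axis, likely direction) on array 1 (circles), array 2 (triangles) and array 3 (squares) for the 24 genes with an assigned symbol, ordered by the departure of array 2. The triangle is the lowest point in every row, as the rule requires, and only RXF26 has it above 0.

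Families were grouped by the letters of their symbols after the values were seen. In 14 families with a member in the group and another measured gene, 62 genes were measured, of which 16 met the rule and 46 did not. Of these 46, SWEET8 alone departed by -1 or lower, a share of 2.17% beside 2% of all named loci. The 2% includes the members and the 46 do not, so the shares are not alike and nothing is read from them. No test of families was made, since the members were chosen on the same values.

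**Figure D4:**
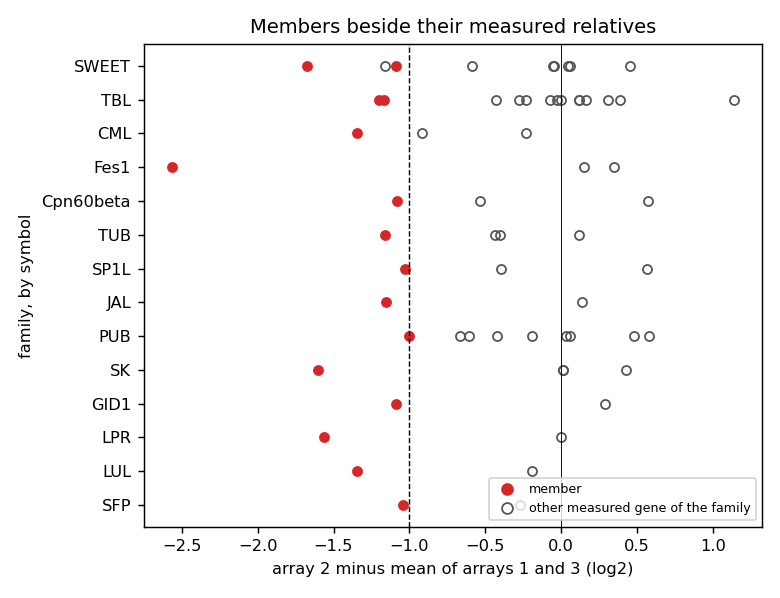
Departure of array 2 from the mean of arrays 1 and 3 (log2, horizontal axis) for the 62 measured genes of 14 families, with members filled and their relatives open. Members lie at or left of the dashed limit by construction, and 45 of the 46 relatives lie right of it. Of all named loci, members included, 2% lie at or left of it.

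Among loci without a symbol, AT1G29470 had the largest departure of all named loci. Its ratio was 1.2 on array 1, -2.96 on array 2 and 1.73 on array 3, so array 2 lay 21.5-fold below the mean of the others. AT5G24760 had 0.19, -2.51 and 0.78, and AT4G06744 had 0.58, -1.98 and 1.17. AT1G29470, AT5G24760 and AT4G06744 were the lowest 3 of the group by departure, and each turned from above 0 to below 0 on array 2.

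AT3G22270 had 1.06, -1.14 and 1.44 and was, with AT1G29470, a gene at 1 or above on arrays 1 and 3 and at -1 or below on array 2. AT1G07400 had 1.35, -0.96 and 1.39, and AT4G04750 had 1.22, -0.78 and 1.38. AT4G27890 had 1.84, -0.25 and 1.62, and AT5G05830 had 1.59, -0.18 and 1.28. In AT4G27890 and AT5G05830 the high ratio of arrays 1 and 3 was near 0 on array 2 and was not turned far below it.

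AT2G22590 stood apart from these, with -0.08, -2.33 and -0.07, so that a low ratio was seen on array 2 alone. AT5G39080 had -0.66, -2.06 and -0.26 and was below 0 throughout. AT3G07090 had 0.55, -1.51 and 0.40. AT2G24580 had 0.44, -1.37 and 0.28, AT3G62960 had 0.64, -1.08 and 0.56, and AT5G40670 had 0.62, -1.05 and 0.57. In AT3G07090, AT2G24580, AT3G62960 and AT5G40670 the ratio on array 2 was further from 0 than on arrays 1 and 3.

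The 64 loci without a symbol outside the 20 largest departures ran from -1.455 to -1.0 in departure, with a median of -1.15. Their medians were 0.505, -0.74 and 0.455 on arrays 1, 2 and 3. AT2G35750, the other gene with 2 features, had 1.21, 0.10 and 1.01 on the first and 0.30, -1.02 and 0.26 on the second. The departures of these features, -1.01 and -1.3, were alike, but their levels were not, and the first stayed above 0 on every array.

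At the limit of the rule, AT5G15300 and AT5G50915 were inside with departures of -1.0, as was PUB25. Just outside lay ACLB-1 and AT3G16560 with departures of -0.995 and AT1G14810 with -0.99. The gap between both sides was far smaller than the difference of arrays 1 and 3, whose median over the members was 0.175.

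A limma fit of the mean ratio of each locus against 0 over the 3 arrays, with Benjamini-Hochberg adjustment over all named loci, called 17.2% of loci at an adjusted p under 0.05, with 7.88% higher and 9.29% lower in hy5-1. It called 4 of the 102 genes, all higher, and 0 lower. At an unadjusted p under 0.05 there were 17 of the 102, or 16.7%, against 36.3% of all named loci. The rule fixes a wide spread between the arrays of each member, so nothing is read from these shares. The 4 were AT4G04630, AT4G20420, AT1G26800 and AT5G50915, and all of them were among the 8 genes above 0 on every array. AT4G20420 had 1.93, 0.63 and 1.55, a mean of 1.37 ± 0.67 (SD, n = 3), and its adjusted p from limma was 0.0316. AT4G04630 had 1.82, 0.42 and 1.38. With array 2 left out limma called 52 of the 102, or 51%, and 19.1% of all named loci. The rule chose members whose arrays 1 and 3 lay close together, so nothing is read from that share either. With array 1 or array 3 left out it called 0 loci, members or not.

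The same rule was applied with each array in turn as the departing array, as a description with no test. With array 1 in that place 27 loci were lower, and with array 3 in that place 3 were. Array 2 was thus the array with most loci of this kind, with 102, or 1.41% of named loci. The mirrored rule found 82 loci that were higher on array 2 alone, or 1.13%, so departures of array 2 occurred in both directions. Over all 45220 features, most of them unnamed, the SD was 0.3852 on array 2 against 0.3774 and 0.3206 on arrays 1 and 3. The scaled median absolute deviation over the same features was 0.1334 on array 2, against 0.2076 and 0.1927. Over the named loci alone the quartiles were -0.26 and 0.26 on array 2, -0.27 and 0.27 on array 1, and -0.24 and 0.23 on array 3, so there array 2 was not the narrowest. The part of array-wide spread in the group was not tested.

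**Figure D5:**
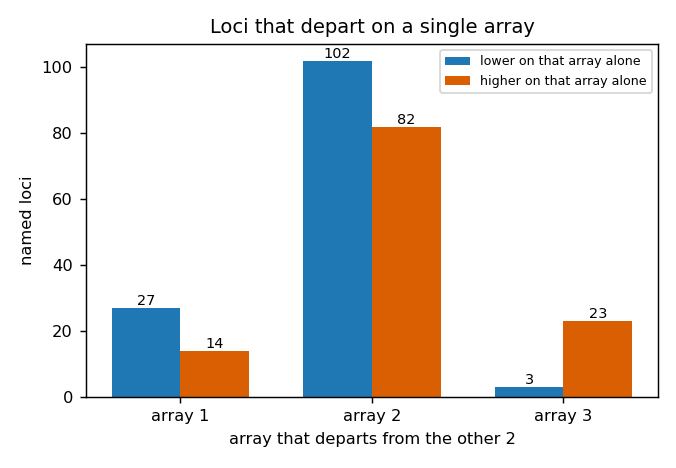
Number of named loci (vertical axis) that were lower (blue) or higher (orange) on a single array by the same rule, for each array as the departing array. Array 2 has 102 lower and 82 higher loci, against 27 and 14 for array 1 and 3 and 23 for array 3.

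The place of a feature on the array was not used by the rule. The 104 features of the 102 genes fell in all 5 equal bands of array rows, with 17 to 28 in each. Bands of array columns were not counted. Their 823 neighbouring features had a median departure of -0.025, against 0 over all 45220 features, and the medians around single features ran from -0.285 to 0.345. Of the neighbours, 18 (2.19%) departed by -1 or lower, against 1.26% of all features. Most of all features are unnamed, and these met the limits of the rule less often (0.847%) than named ones (1.51%). The named share among the neighbours was not counted. Features of members were kept among the neighbours, and a feature beside several members was counted for each. Nothing is therefore read from these shares. The part of array position in the group was not tested.

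By chromosome, members made up 1.03% of named loci on chromosome 1, 1.3% on chromosome 2, 1.39% on chromosome 3, 1.49% on chromosome 4 and 1.87% on chromosome 5. In the gene order of assembly TAIR10.1, 3 pairs of members were adjacent among named loci, namely AT2G24560 with AT2G24580, AT5G38940 with AT5G39080 and AT5G45775 with AT5G45850. GID1C and SFP1 had 1 named locus between them. In all, 12 members lay in 6 pairs with at most 2 named loci between them. Such pairs were not counted for other sets of named loci, so nothing is read from their number.

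None of the 20 measured genes of the 17 lists drawn up for this work was in the group, which holds 1.41% of all named loci. Among the 20, DFR, UGT75C1, 5MAT and 3AT1 met the limits and were left out by name, so nothing is read from this count. The 4 measured cold-response genes had a median departure of -0.3, from -0.555 for COR28 to 0.37 for COR27. Of these 4, 0 passed the limma threshold in either direction, against 17.2% of all named loci. The 8 measured flavonoid and anthocyanin genes had a median departure of -2.445, but those that met the limits are left out by the rule, and 0 of 8 passed the limma threshold. In other lists the light-harvesting gene LHCB4.3 passed it as higher in hy5-1. LHCB4.1, the clock gene GI and the guard cell marker FAMA passed it as lower. The lists are too short for a share to be read. Markers of other tissues were few. VGD1 (pollen) departed by -0.04 and EXPA18 (root hairs) by -0.035. FAMA (guard cells) departed by 0.16 and RCA (leaf mesophyll) by 0.785. Each is a ratio with no level, so the presence of these tissues was not checked.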

How the data were processed

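Cy5 and Cy3 ratios of 3 two-colour arrays were analysed. The authors deposited a table of log2 ratios for 45220 features per array. Its normalisation, scanner software, log base and numerator are not given in the sources consulted, and base 2 was assumed from the values. Per the labels, hy5-1 was Cy5 and Ler Cy3 on each array. Of the features, 7440 had a single gene in the platform annotation, none had several, and 37780 had none. The annotation was matched to value rows by a feature order taken to be the array maker's, which earlier work had found from these values. For 7 genes with 10 or more features this order gave a variance within genes of 0.087 of the total variance. Row numbers as given gave 0.979. As the order was found from these same values, the comparison is no independent check of it. Every gene name rests on the order. Names came from the RefSeq gene table of TAIR10.1, which matched all named features.

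Features of a locus were averaged. Limma (version 3.58.1, R 4.3.3) fitted an intercept with empirical Bayes moderation, with 2 residual and 3.04 prior degrees of freedom, and a threshold of 0.05 on adjusted p. The code of the fit and of the rule was run on simulated data. The drops planted for the rule were larger than most measured ones, so genes near its limit were not probed. The named genes were the 20 with the largest departure, members with 2 features, and others sharing a family or role; further symbols were added after their values were seen. The members and lists were chosen with earlier results of these data known. Alternatives were other scaling, centring, moderation, limits, feature order and arrays left out. Promoter motifs were not analysed here.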

Additional observations from a re-analysis of the deposited data

Results flagged for a closer look

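Features without a gene name, which could not be members, also met the limits of the rule. Of 37780 such features, 320 (0.847%) were lower on array 2 alone by the same limits, against 112 of 7440 named features (1.51%). Higher on array 2 alone were 365 unnamed features (0.966%). Control spots among them were not removed, and no gene is given for them.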

How the results depend on the processing

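The number of members, 102, was the same with each array centred on its median, and was 77 with arrays 1 and 3 within 0.35 and 105 with the rule applied to each feature. It became 183 with the arrays brought to equal median absolute deviations, 93 of them shared with the 102, 190 with a departure of -0.8 or less, and 21 with -1.5 or less. With row numbers as given it was 66, of which 1 was shared. It was 27 with array 1 and 3 with array 3 in the place of array 2. The median departure of -1.186 became -1.427 with scaled arrays. By limma, 1242 loci passed the threshold, against 391 with scaled arrays and 3 with an unmoderated statistic. Leaving out an array gave 0 to 1380, with 0 without replicate 1 and without replicate 3 (1613 and 1585 at an unadjusted p under 0.05). Of the members 4 passed, against 1 with scaled arrays, 0 with the unmoderated statistic, and 0 to 52 with an array left out. The causes were not tested, beyond the arrays and limits that each setting removes. Signal over background is unknown. Mutant and wild type share each array, so each ratio is a paired difference, and the limma fit of ratios against 0 used that pairing. The arrays belong to 1 group, so no pairing between arrays was possible.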
